A study of Mus musculus with 3 samples.

Results

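The genes described here are the 7 cyclin-dependent kinase (CDK) inhibitor genes of the mouse: Cdkn1a, Cdkn1b and Cdkn1c of the CIP/KIP family and Cdkn2a, Cdkn2b, Cdkn2c and Cdkn2d of the INK4 family. They were taken by name, as 7 of 21887 protein-coding genes, and every open-chromatin peak in the gene or within 20 kb on either side was read from each of 3 peak lists (mm10). These windows held 12 of 17189 peaks in the DMSO list, 14 of 21321 in the AZD2014 list and 12 of 18233 in the rapamycin list. Merged across lists, the peaks formed 15 of the 24981 regions of the series. The cells were hematopoietic stem cells (HSCs) sorted by FACS from adult mice of the genotype Mx1-Cre-/-;mTORflox/flox after poly(I:C). All groups share the floxed alleles and the poly(I:C) exposure, and without the Cre transgene mTOR stays intact. The cells were cultured and given the solvent DMSO, 200 nM AZD2014, an inhibitor of the mTOR kinase site, or 1 µM rapamycin, which binds mTOR allosterically with FKBP proteins. ATAC-seq, in which a transposase cuts and tags open DNA, was run on 50000 cells per library, with 1 library per condition. With no second library in any condition, the spread among replicates is not known, and differences are described without a p-value. The doses of the drugs differ, so the drugs are each set beside DMSO and not against one another. The number of animals pooled and the duration of exposure are not given in the sources.

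CIP/KIP proteins bind CDK and cyclin together and restrain several CDK complexes, whereas INK4 proteins bind CDK4 and CDK6 and keep D-type cyclins from activating them. Both families hold the retinoblastoma protein in its active state and slow entry into S phase. In bone marrow, the CIP/KIP proteins p27 (Cdkn1b) and especially p57 (Cdkn1c) are known for keeping HSCs quiescent, and products of Cdkn2a limit self-renewal when Polycomb repression is lost. Growth factor signalling through PI3K and AKT lowers p27 activity, in part through FOXO transcription factors, which links these genes to the pathway that the drugs target.

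Each peak carries the authors' own score. A score is given here with its percentile, the share of peaks in the same list with a lower score, so that 100 is the top of a list. The lowest score in each list was 50, and the median was 124 under DMSO, 134 under AZD2014 and 128 under rapamycin. Scores of different lists are on no shown common scale, and a percentile that differs between lists of unequal length does not show that accessibility changed. A peak missing from a list did not pass the authors' threshold there. Depth is unknown, since the lists hold no read numbers. The AZD2014 list was 24.0% longer than the DMSO list and the rapamycin list 6.07% longer.

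As a check of the label, 8 of 12 HSC marker genes carried a peak at a start (within 1 kb) under DMSO, 9 under AZD2014 and 6 under rapamycin, with Kit, Meis1, Mecom, Hlf, Runx1 and Tal1 marked in all 3 lists and Procr and Slamf1 among those marked in none. Over all protein-coding genes the shares were 47.2%, 50.7% and 48.2%, so the count under rapamycin was near that of genes in general. Gata2 and Lmo2 were unmarked under rapamycin only, and Cd34 was marked under AZD2014 alone, with all of these peaks at percentile 35.0 or lower. None of 5 T cell markers was marked in any list, and 1 of 5 B cell markers (Ebf1) was marked in each. Of the erythroid markers, 3 of 5 were marked in every list, Epor and Klf1 among them. Of 6 neutrophil and monocyte markers, 0 were marked under DMSO and AZD2014 and 2 under rapamycin. These were Mpo (percentile 27.2) and Ly6c2, whose score of 50.1 (percentile 0.165) was close to the lowest score of the list. Of 4 mast cell markers only Cpa3 was marked, under rapamycin (percentile 28.6). Of 5 non-blood markers, Col1a1 was marked in each list. A peak at a marker gene is not a measure of its expression, and the part of other cells in the results was not tested.

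Every window held at least 1 peak in each list, while 33.6% of protein-coding genes had none under DMSO, 29.9% under AZD2014 and 32.2% under rapamycin. A promoter peak, a peak within 1 kb of an annotated gene start, was present at all 7 genes under DMSO, where 47.2% of protein-coding genes had one. Under AZD2014 it was present at 6 of the 7 (50.7% of all genes) and under rapamycin at 6 (48.2%). The exception under both drugs was Cdkn1a, and it depended on the 1 kb limit: with 2.5 kb on either side all 7 genes were marked in each list. Cdkn1c was placed by its gene ends. Among the other 6 genes, which have annotated starts, a promoter peak was present at 6 under DMSO (48.5% of all such genes), 5 under AZD2014 (51.8%) and 5 under rapamycin (49.5%). Of the 15 regions in the windows, 11 held a peak in all 3 lists (73.3%). This was so for 54.7% of all regions and 82.3% of all promoter regions. The remaining 4 regions were 2 found under AZD2014 alone (13.3%), 1 under both drugs (6.67%) and 1 under DMSO alone (6.67%). Over all regions these shares were close, at 16.0%, 8.63% and 5.80%. The map of peaks around the genes shows all of them.

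**Figure D1:**
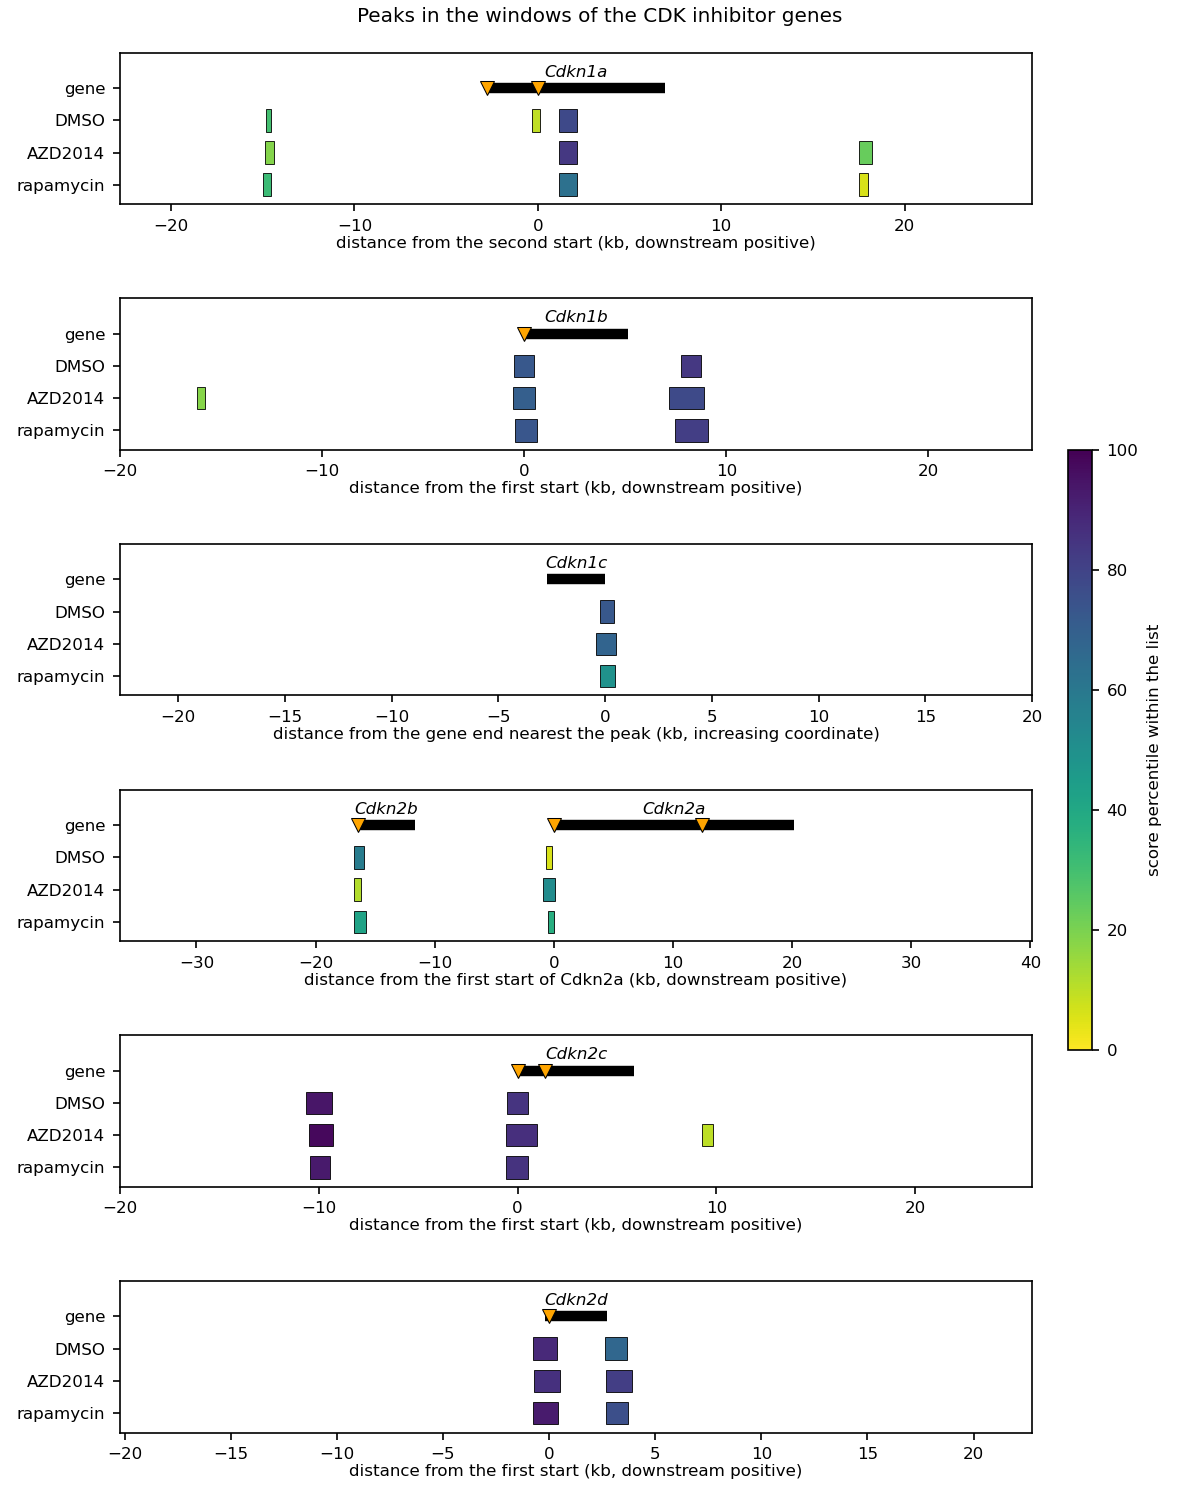
Peaks in the windows of the 7 CDK inhibitor genes, 1 row per peak list (1 library each), against distance in kb from a gene start or, for Cdkn1c, from a gene end. Black bars are genes, orange triangles annotated starts, and boxes peaks drawn to scale and coloured by score percentile within their list. Strong peaks near starts recur in every list at Cdkn1b, Cdkn2c and Cdkn2d, while boxes found in 1 or 2 lists all stand at percentile 23.3 or lower.

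RefSeq promoter entries (GRCm38.p6) were matched for 6 of the 7 genes, with 9 starts in all. The 250 bases before a start are shown for the starts on which the results turn, read 5′ to 3′ on the gene's strand. Capitals mark matches on either strand to the motifs searched. Cdkn1a downstream start, chr17:29093519-29093768, plus strand, is the start that carried a peak under DMSO alone. Cdkn1b, chr6:134920151-134920400, plus strand, was open in every list. Cdkn2a upstream start, chr4:89294620-89294869, minus strand, and Cdkn2b, chr4:89311033-89311282, minus strand, are the neighbours whose score order differed between lists. Cdkn2a downstream start, chr4:89282193-89282442, minus strand, had no peak.
Cdkn1a downstream start: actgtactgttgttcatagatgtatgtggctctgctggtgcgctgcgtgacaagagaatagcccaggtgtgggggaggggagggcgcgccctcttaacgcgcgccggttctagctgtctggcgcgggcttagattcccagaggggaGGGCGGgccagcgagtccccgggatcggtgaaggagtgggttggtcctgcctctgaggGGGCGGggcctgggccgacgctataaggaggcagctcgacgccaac
Cdkn1b: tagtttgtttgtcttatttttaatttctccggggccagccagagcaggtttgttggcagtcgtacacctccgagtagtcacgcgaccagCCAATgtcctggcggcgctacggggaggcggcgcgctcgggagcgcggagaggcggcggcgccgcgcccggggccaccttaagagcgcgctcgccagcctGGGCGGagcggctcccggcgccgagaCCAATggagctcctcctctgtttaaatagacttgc
Cdkn2a upstream start: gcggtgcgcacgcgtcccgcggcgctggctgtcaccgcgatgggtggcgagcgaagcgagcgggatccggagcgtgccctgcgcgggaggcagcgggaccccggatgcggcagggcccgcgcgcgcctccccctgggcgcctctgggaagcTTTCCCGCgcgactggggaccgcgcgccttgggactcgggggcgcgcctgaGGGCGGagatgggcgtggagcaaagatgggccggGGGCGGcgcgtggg
Cdkn2b: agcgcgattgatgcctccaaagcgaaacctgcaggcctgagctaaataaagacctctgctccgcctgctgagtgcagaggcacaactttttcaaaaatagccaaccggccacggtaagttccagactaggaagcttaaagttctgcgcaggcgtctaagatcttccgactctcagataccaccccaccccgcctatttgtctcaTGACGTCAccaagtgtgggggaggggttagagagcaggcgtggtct
Cdkn2a downstream start: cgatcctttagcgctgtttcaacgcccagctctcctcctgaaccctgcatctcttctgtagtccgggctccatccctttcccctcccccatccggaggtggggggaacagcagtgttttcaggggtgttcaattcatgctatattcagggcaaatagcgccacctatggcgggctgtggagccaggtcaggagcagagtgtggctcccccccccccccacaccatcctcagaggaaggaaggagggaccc

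The CpG ratio, the number of CpG dinucleotides over that expected from base composition, differed between the starts. It was 1.08 at Cdkn1b and also 1.08 at the upstream Cdkn2a start, values reached by 3.46% and 3.72% of all starts. It was 0.771 at the downstream Cdkn1a start, 0.782 at the upstream Cdkn2c start, 0.670 at Cdkn2b and 0.646 at Cdkn2d. The median over 21263 starts of protein-coding genes was 0.530. The starts with no peak within 1 kb in any list had the lowest values, 0.316 at the downstream Cdkn2a start and 0.11 at the upstream Cdkn1a start. The downstream Cdkn2c start, at 0.525, had no peak over it and a peak between 431 and 850 bp away. Over all genes, 80.1% of starts with a ratio of 0.6 or more had a DMSO peak within 1 kb and 20.1% of those below it.

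**Figure D2:**
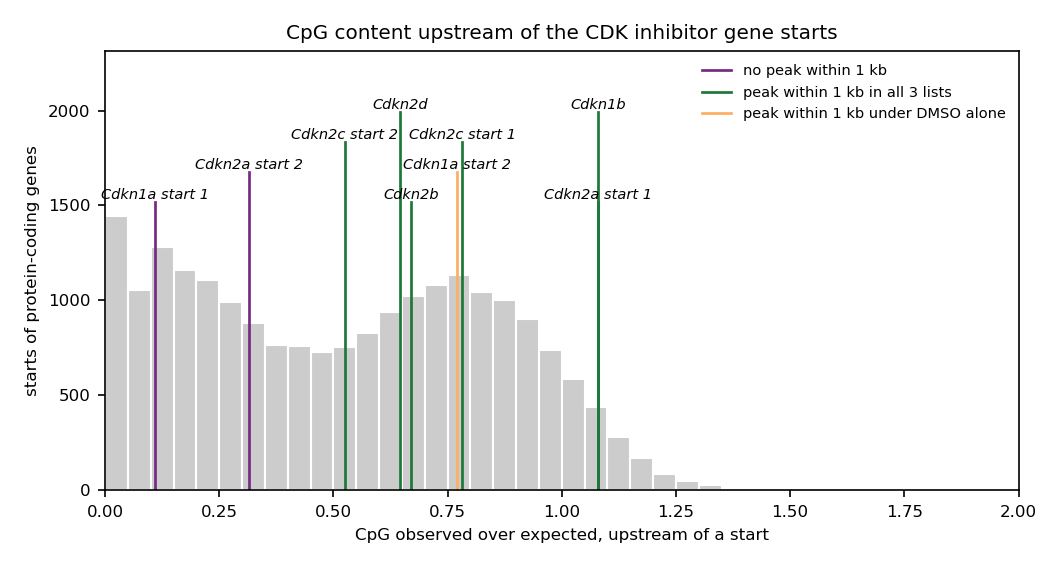
CpG observed over expected in the 250 bases before each start (x axis) for 21263 starts of protein-coding genes (grey bars, number of starts) and for the 9 starts of CDK inhibitor genes (vertical lines, whose height has no meaning). The starts with no peak within 1 kb in any list, the upstream Cdkn1a and the downstream Cdkn2a start, have the lowest ratios, 0.11 and 0.316.

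Of the motifs, the GC box GGGCGG, a binding motif of SP factors, was present before 5 of the 9 starts and 42.6% of all starts. The CCAAT motif was present before 2 of the 9, Cdkn1b and Cdkn2d, and 35.4% of all starts. Cdkn1b held CCAAT at both 161 and 35 bp before its start. The E2F motif TTTCCCGC occurred before the upstream Cdkn2a start, 99 bp away, and before 1.19% of all starts. The cyclic AMP response element TGACGTCA, the motif of CREB and ATF factors, occurred before Cdkn2b, 46 bp away, and before 1.92% of all starts. Its shorter form TGACGTC overlaps it and was found in 3.36%. No match was found in these windows to TTTGGCGC (E2F, 0.508% of all starts), GTAAACA (FOXO, 2.62%), CCGGAA (ETS, 15.0%), TGANTCA (AP-1, 6.13%), TGTGGT (RUNX, 12.4%), CACGTG (E box, 6.63%) or TATAAA (11.6%). A match describes letters in this window and not a bound site.

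Cdkn1a encodes p21, the inhibitor that p53 induces after DNA damage. The gene (chromosome 17, 29090979 to 29100722) has an upstream start at 29090979 and a downstream start at 29093769. Over the downstream start lay a peak found under DMSO alone (29093427 to 29093874, score 57.8, percentile 9.75). No peak covered the upstream start in any list. Under AZD2014 and rapamycin the nearest peaks were 1165 and 1180 bp from the downstream start. Among the 1449 regions of the series found under DMSO alone the median percentile was 11.9. Such regions were 1.63% of all promoter regions.

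The strongest Cdkn1a peak lay inside the gene, with its centre 1648 bp past the downstream start, and was present in all 3 lists with nearly the same borders. It ran from 29094940 to 29095883 under DMSO (score 252, percentile 78.0), from 29094934 to 29095901 under AZD2014 (score 383, percentile 83.7) and from 29094949 to 29095898 under rapamycin (score 186, percentile 63.0). Its percentile was 5.7 points higher under AZD2014 and 15.0 points lower under rapamycin than under DMSO. A weaker peak 11.9 kb upstream of the upstream start was also common to the lists, at percentiles 29.8, 18.4 and 31.8 under DMSO, AZD2014 and rapamycin. It overlapped the nearer end of Trp53cor1, the gene of the p53-induced long non-coding RNA lincRNA-p21. The region 17.9 kb downstream of the downstream start (29111290 to 29111983), outside any annotated gene, had peaks under AZD2014 (score 72.6, percentile 23.3) and rapamycin (score 54.0, percentile 6.21) and none under DMSO. The window thus held 3 peaks in every list, but not the same 3.

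Cdkn1b encodes p27, which accumulates in resting cells (chromosome 6, 134920401 to 134925525). Its promoter peak covered the start in all lists, with scores of 219 under DMSO, 252 under AZD2014 and 247 under rapamycin. Its percentiles of 72.8, 70.1 and 73.3 lay close to each other and to the median of all genes with a promoter peak, which was 70.8, 74.9 and 72.3. The stronger peak of the window lay 8.13 kb past the start, over the start of Lockd (134929092), a long non-coding RNA gene whose locus is known as an enhancer of Cdkn1b in erythroid cells. It stood at percentiles 83.6, 77.5 and 81.8, with widths of 1000 bp under DMSO, 1753 bp under AZD2014 and 1636 bp under rapamycin. A small peak 16.0 kb upstream (134904218 to 134904625, score 65.7, percentile 18.2) was found under AZD2014 alone.

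Cdkn1c encodes p57, an imprinted gene expressed from the maternal chromosome and prominent in quiescent HSCs. Its window (gene at chromosome 7, 143458339 to 143461059) held a single region, over one end of the gene, and no peak over the starts of its neighbours Slc22a18, a membrane transporter gene, and Gm33663, a long non-coding RNA gene. The peak ran from 143460832 to 143461470 under DMSO (score 219), from 143460634 to 143461594 under AZD2014 (score 238) and from 143460830 to 143461537 under rapamycin (score 127). Under DMSO it stood next to the Cdkn1b promoter peak, at ranks 4684 and 4677 of 17189. In the rapamycin list the pair was apart, at ranks 9205 and 4862 of 18233. The Cdkn1c percentile was 72.8 under DMSO, 68.3 under AZD2014 and 49.5 under rapamycin, where it was outside the upper 50% of the list.

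Cdkn2a and Cdkn2b lie side by side on chromosome 4 and share a window. Cdkn2a (89274473 to 89294619, minus strand) encodes 2 proteins from separate starts: p19Arf from the upstream start, which stabilises p53 by inhibiting MDM2, and p16Ink4a from the downstream start, which inhibits CDK4 and CDK6. Cdkn2b (89306289 to 89311032, minus strand) encodes p15Ink4b, an inhibitor induced by TGF-beta. Each list held 1 peak near the upstream Cdkn2a start and 1 over the Cdkn2b start, and no other peak in the window. The downstream start, that of p16Ink4a, had no peak over it in any list, and the nearest one lay 12346 to 12563 bp away at the upstream start.

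The order of the neighbouring peaks differed between the lists. Under DMSO the Cdkn2b peak scored 151 and the Cdkn2a peak 54.8. Under AZD2014 the Cdkn2a peak scored 142 and the Cdkn2b peak 58.6, the reverse order. Under rapamycin the scores were near each other, 93.0 at Cdkn2a and 104 at Cdkn2b. The higher score was thus 2.76 times the lower in the DMSO list, 2.42 times in the AZD2014 list and 1.12 times in the rapamycin list. In percentiles, Cdkn2a stood 52.2 points below Cdkn2b under DMSO, 40.5 points above it under AZD2014 and 4.6 points below it under rapamycin. The order of the 2 scores is read within each list and needs no common scale. The sizes of the ratios and gaps depend on the scores and length of each list, so they are not compared between lists. Of 1423 pairs of neighbouring promoter regions up to 20 kb apart and present in all lists, 14.1% had their order reversed between DMSO and AZD2014, and 2.04% (29 pairs) with a gap of 10 percentile points or more in both lists. Between DMSO and rapamycin, where the Cdkn2a and Cdkn2b order was the same, 14.3% were reversed, and 1.90% with a gap of 10 points or more in both lists. The pair was singled out after its values were seen.

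The peaks also differed in extent. At Cdkn2a the DMSO peak (89294755 to 89295260, 506 bp) ended 136 bp short of the start and covered 115 of the 250 bases printed above. The AZD2014 peak (89294538 to 89295518, 981 bp) covered the start and all 250 bases, and the rapamycin peak (89294620 to 89295082, 463 bp) covered all 250 and ended 1 bp before the start. The start of the long non-coding RNA gene Gm12610, which runs the other way from 89295180, was inside the DMSO and AZD2014 peaks and outside the rapamycin peak. At Cdkn2b the peak covered the start and all 250 bases in each list, with widths of 780 bp under DMSO, 561 bp under AZD2014 and 996 bp under rapamycin.

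Cdkn2c encodes p18Ink4c, whose loss is known to expand HSCs in mice (chromosome 4, 109660876 to 109666756, minus strand). Its promoter peak covered the upstream start in every list, with scores of 306 under DMSO, 418 under AZD2014 and 353 under rapamycin. Its percentiles of 85.0, 86.5 and 85.3 were within 1.5 points of each other. The AZD2014 peak was the widest at 1538 bp, against 1069 bp under DMSO and 1132 bp under rapamycin, and reached farther into the gene. The highest-scoring peak of all 7 windows lay 9.96 kb upstream, over the start of Faf1, which encodes a FAS-associated ubiquitin-binding factor and is transcribed away from Cdkn2c. It stood at percentiles 94.4, 97.7 and 93.3. A peak 8.16 kb past the downstream start (109656938 to 109657489, score 57.3, percentile 10.1) was found under AZD2014 alone, inside the long non-coding RNA gene 9630013D21Rik.

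Cdkn2d encodes p19Ink4d (chromosome 9, 21288459 to 21291421, minus strand). Its promoter peak scored 338 under DMSO, 414 under AZD2014 and 458 under rapamycin, at percentiles 88.3, 86.2 and 92.8, and was the highest-ranked promoter peak of the family under DMSO and rapamycin. Under AZD2014 it came just behind Cdkn2c, at ranks 2943 and 2877 of 21321. The other peak of the window covered the start of Kri1, a ribosome biogenesis gene, and the 3′ end of Cdkn2d. It stood at percentile 66.9 under DMSO, 82.0 under AZD2014 and 75.9 under rapamycin.

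**Figure D3:**
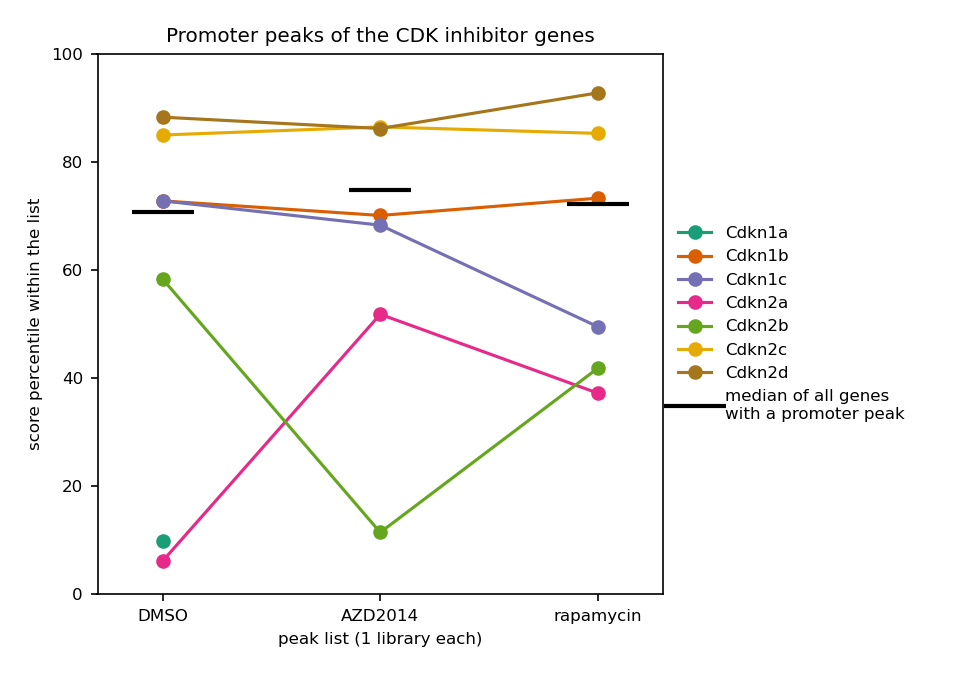
Score percentile within the list (y axis) of the highest-scoring promoter peak of each CDK inhibitor gene in the 3 peak lists (x axis, 1 library each). Coloured points are genes, lines join a gene across lists, and black dashes mark the median of all genes with a promoter peak. Cdkn2c and Cdkn2d stay at percentile 85.0 or higher, Cdkn1b lies near the dashes, and Cdkn2a and Cdkn2b cross between DMSO and AZD2014.

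By rank, Cdkn1b, Cdkn2c and Cdkn2d stood within 4.5 percentile points of their DMSO value under both drugs. Cdkn2a and Cdkn2b did so under neither drug, and Cdkn1c under AZD2014 (-4.4) but not rapamycin (-23.2). Cdkn1a had no promoter peak under either drug and so no value. For Cdkn1b under AZD2014 the small difference depended on the ranking: -2.7 points became -9.9 at equal list lengths and -12.5 with ranks among the regions common to all lists. Both drug comparisons below use the same DMSO library. Promoter regions in general stood higher in the drug lists, with a median difference of 4.57 percentile points for AZD2014 minus DMSO over 9226 regions and 1.11 points for rapamycin minus DMSO over 8973. Under AZD2014, 1 of the 6 inhibitor genes with a promoter peak in both lists was 10 points or more higher (31.0% of all promoter regions) and 1 was 10 points or more lower (4.09%). Cdkn2a was 45.7 points higher and Cdkn2b 46.9 points lower, and the other 4 lay between -4.4 (Cdkn1c) and 1.5 points (Cdkn2c). The Cdkn1c value under AZD2014 did not hold its size or its direction, at -12.0 points with lists of equal length, -15.1 among the common regions and 20.1 by peak width. Under rapamycin, 1 was 10 points or more higher (19.8% of all promoter regions) and 2 were 10 points or more lower (11.1%). Cdkn2a was 31.1 points higher, Cdkn1c 23.2 and Cdkn2b 16.5 points lower, and Cdkn1b, Cdkn2c and Cdkn2d lay between 0.3 and 4.5 points. At equal list lengths the Cdkn2b peak under AZD2014, at rank 18896, was lost. Ranked by peak width in place of score, the rapamycin differences turned to -19.2 points for Cdkn2a and 8.3 points for Cdkn2b, and that of Cdkn1c was -4.4 points.

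Each difference was also read against promoter regions from the same band of 20 percentiles in the DMSO list, a comparison added after the values were seen. Only regions with a peak in both lists were counted, so DMSO regions with no peak in the drug list are left out of these shares. Cdkn2a came from percentiles 0 to 20, where 75.3% of regions were 10 points or more higher under AZD2014 and 71.5% under rapamycin. A difference as large as that of Cdkn2a was reached by 12.0% of those 527 regions under AZD2014 and by 28.7% of 418 under rapamycin. Cdkn2b came from percentiles 40 to 60, where 6.36% of 1854 regions were 10 points or more lower under AZD2014. A difference as low as its own was reached by 2 of them, Cdkn2b itself and Ybx2, which encodes a germ cell Y-box RNA-binding protein. Regions below percentile 46.9 under DMSO could not fall that far, so part of this band could not have reached it. The count of 2 therefore does not measure how rare such a fall is. Under rapamycin 18.0% of 1829 regions from percentiles 40 to 60 were 10 points or more lower, and 9.95% were as low as Cdkn2b. Cdkn1c came from percentiles 60 to 80, where 3.69% of 2713 regions were 10 points or more lower under AZD2014. Cdkn1c was not among them with the full lists. It was past 10 points lower at equal list lengths and among the common regions. The 3.69% does not apply to those settings, for which no matching share was computed. Under rapamycin 12.6% of 2712 such regions were 10 points or more lower and 1.59% were as low as Cdkn1c.

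**Figure D4:**
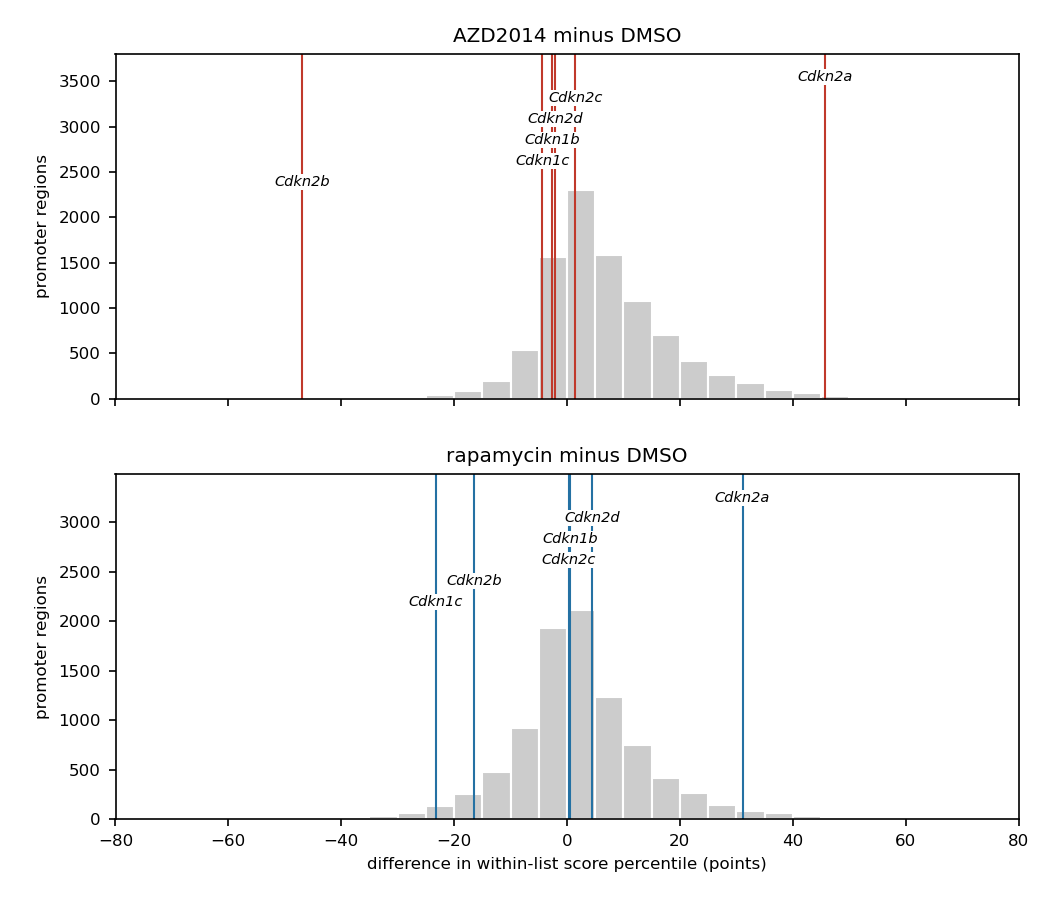
Difference in within-list score percentile, drug minus DMSO (x axis, points), for all promoter regions with a peak in both lists (grey bars, number of regions) and for 6 CDK inhibitor genes (vertical lines). The upper panel is AZD2014 and the lower rapamycin, both against the same DMSO library. Cdkn2a and Cdkn2b lie far to the right and left under AZD2014, at 45.7 and -46.9 points, and Cdkn1b, Cdkn2c and Cdkn2d lie near 0 in both panels.

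In number of window peaks, 2 of the 7 genes, Cdkn1b and Cdkn2c, had more under AZD2014 than under DMSO (23.6% of all genes) and 0 had fewer (6.41%). With the lists shortened to equal length, 0 of the 7 had more under AZD2014 (12.4% of all genes) and 3 had fewer (11.8%), namely Cdkn1a, Cdkn2a and Cdkn2b, of which the last pair share the peak that was lost. Under rapamycin, with the full lists, 0 had more (14.8%) and 0 fewer (11.3%). The mean per gene was 2.0 under DMSO, 2.29 under AZD2014 and 2.0 under rapamycin, against 1.32, 1.56 and 1.37 over all protein-coding genes. Of the 14 AZD2014 peaks, 4 ranked beyond the length of the DMSO list, as did 19.4% of that list. They were the Cdkn2b promoter peak, the single-list peaks near Cdkn1b and Cdkn2c and the Trp53cor1 peak upstream of Cdkn1a.

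Among genes with the pattern most like each inhibitor, by Euclidean distance over the 3 percentiles, Cdkn1a was nearest to Slc29a1 and Aatk, which also had a weak promoter peak under DMSO alone. A list without a promoter peak was entered as percentile 0. The Cdkn1a match thus rests on missing peaks under both drugs and on the DMSO value. For Cdkn1b the nearest genes were Anapc2 and Ssna1, which share a promoter region 1.07 points away. Stk4 and Scp2 were nearest to Cdkn1c, at 3.10 and 3.38 points, and Dennd5b and Zfp251 to Cdkn2a, at 1.49 and 3.0 points. Cdkn2b had the least close neighbours, Ybx2 at 6.27 and Vps54 at 7.58 points. Esd and Atl2 lay within 0.6 points of Cdkn2c (0.414 and 0.547). Borcs8 and Rfxank, which share a promoter region, lay 0.637 points from Cdkn2d. Each likeness rests on 3 libraries.

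The genes on which the inhibitors act were read in the same way. Of 32 cyclin, CDK, retinoblastoma family, E2F and DREAM complex genes, 28 had a promoter peak under DMSO and 29 under each drug, with 28 marked in every list. Over all protein-coding genes 47.2%, 50.7% and 48.2% had one. The listed peaks stood at median percentiles of 79.7, 83.4 and 79.6, against 70.8, 74.9 and 72.3 over all genes with a promoter peak. Cdk6, an INK4 target whose kinase drives passage through G1, was the only one of the 32 whose status differed. It had no promoter peak under DMSO, though 3 peaks lay in its window. Its promoter peak scored 58.4 (percentile 11.2) under AZD2014 and 75.2 (percentile 26.7) under rapamycin. Counted by region and not by gene, 82.3% of all promoter regions held a peak in every list. Cdk4, the other INK4 target, stood at percentiles 94.7, 95.3 and 84.6. Of the D-type cyclins, Ccnd1 had no promoter peak in any list, as was the case for Mnat1 and Tfdp2. Ccnd2 stood at 50.2, 75.4 and 67.1 and Ccnd3 at 54.3, 63.4 and 40.4. Cdk2, the main CIP/KIP target, stood at 87.2, 84.2 and 84.0.

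Of 32 genes that regulate the inhibitors or share their name, 31 had a promoter peak in each of the lists, the exception being Gfi1 in all 3. Their median percentiles were 74.1, 83 and 76.3, beside the all-gene shares and medians just given. Trp53, which encodes the p53 activator of Cdkn1a, stood at percentiles 72.9, 76.7 and 74.1 under DMSO, AZD2014 and rapamycin. Of the FOXO genes, whose products activate Cdkn1b, Foxo1 stood at 62.6, 66.8 and 47.3, Foxo3 at 85.9, 83 and 81.2, and Foxo4 at 49.5, 62.9 and 44.7. The Polycomb genes, whose products repress Cdkn2a, did not share a direction. Bmi1 stood at 70.5, 62.2 and 46.7, and Cbx7 in the opposite order at 16.6, 23.0 and 57.4. Cbx8 stood at 93.9, 95.4 and 96.6, Rnf2 at 87.6, 86.1 and 86.2, and Ezh2 at 91.4, 92.9 and 91.2. These genes were named for their roles after their values were seen.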

How the data were processed

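ATAC-seq was run on cultured HSCs, 1 library per condition, grouped by the sample titles. The authors deposited 1 peak list per library with a position, a name carrying the word MACS and a score per peak. The submitters' processing notes name CASAVA and the build mm10. Aligner, caller settings, treatment of duplicates and correction for the transposase offset are not stated in the sources. These steps affect the number of weak peaks and the peak borders. Score scale and read depth are unknown, so no interval or test was computed.

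Starts were written from 1. Percentiles were computed from the deposited score within each list, and peaks overlapping by 1 bp or more were merged into regions. Gene positions, starts and promoter sequences came from RefSeq tables on GRCm38.p6, the assembly of mm10. Of 21887 protein-coding genes 17492 had an annotated start there, and the other genes, Cdkn1c among them, were placed by both gene ends. Exons were not separated from introns, and no genome sequence was used. A percentile difference of 10 points or more was counted.

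All members, all their peaks, neighbours with a start inside a window and pathway, regulator or marker genes whose promoter status differed were named, with the 2 genes nearest in pattern to each member. Other listed genes were named for their role after their values were seen. The members and lists were chosen with earlier results of these data known. The alternatives were other window, promoter and overlap sizes, the higher-scoring 50% of each list, lists shortened to 17189 peaks, ranks among common regions and ranks by width. The overlap and rank code was tested on simulated data. Computation used Python 3.11.15, numpy 2.4.6 and matplotlib 3.10.9. Some marker genes are not reported by name here.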

Additional observations from a re-analysis of the deposited data

How the results depend on the processing

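With the gene body alone, window peaks numbered 8 under DMSO, 8 under AZD2014 and 7 under rapamycin. With 50 kb on either side they numbered 17, 22 and 17, and with lists of equal length 12, 10 and 12. Among the higher-scoring 50% of each list there were 9 under AZD2014 and 7 under rapamycin, promoter peaks were present at 5 of the 7 genes under DMSO, 5 under AZD2014 and 3 under rapamycin, 7 regions were common to all lists and 1 was found under a drug and not DMSO. At equal list lengths 1 region was found under a drug and not DMSO, and the Cdkn2b promoter had no AZD2014 peak, so its difference could not be computed. By peak width in place of score, 2 genes were 10 points or more higher under AZD2014, 0 higher under rapamycin and 1 lower, and under rapamycin Cdkn2a turned to -19.2 points and Cdkn2b to 8.3 points. With ranks among regions common to all lists, 3 genes were 10 points or more lower under AZD2014: Cdkn2b, Cdkn1c (-15.1) and Cdkn1b (-12.5). For the higher-scoring 50%, peak width and common regions, no matching shares over all genes or regions are given. The counts in those settings therefore show nothing particular to the 7 genes. Under AZD2014 Cdkn2a kept its sign in every setting, from 24.1 to 45.7 points, and Cdkn2b in every setting that gave a value, from -46.9 to -38.8. The cause of these differences was not tested. Numbers of pathway genes with a promoter peak stayed within 1.5 times in every setting. No paired analysis was possible because each condition has 1 library. Depth is unknown, so peaks near the lowest score, such as the Cdkn1a start peak, cannot be told from peaks just under the threshold.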

Other observations

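Between 20 and 50 kb from the CDK inhibitor genes lay 8 further regions. Of these, 5 had a peak in all 3 lists (54.7% of all regions) and 3 had one under AZD2014 alone (16.0%). This distance was looked at one region at a time after the values were seen. Around Cdkn2d on chromosome 9, regions in all lists covered the starts of Keap1, which encodes the adaptor that marks NRF2 for degradation (percentiles 53.9, 69.0 and 57.8 under DMSO, AZD2014 and rapamycin), Atg4d, an autophagy protease gene (79.0, 76.7 and 85.8), and Slc44a2, a choline transporter-like gene (38.0, 61.9 and 55.3), and one outside any annotated gene (21313191 to 21313919) stood at 27.6, 48.8 and 36.2. A region 22.2 kb upstream of the Cdkn1b start covered the starts of Gpr19, an orphan receptor gene, and 2810454H06Rik, at percentiles 86.6, 88.7 and 83.3. The regions found under AZD2014 alone were weak. They lay near the far end of Lockd (chromosome 6, 134951384 to 134951775, score 56.1), near Cdkn1c (chromosome 7, 143505954 to 143506263, score 54.6) and within Slc44a2 (chromosome 9, 21321326 to 21321954, score 57.0).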
